A study of Mus musculus with 6 samples.

Results

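The MYC and MAX network is a family of transcription factors that meet on the same DNA sites through shared dimerization partners. It was followed here through 10 transcripts: Myc, Mycn, Mycl, Max, Mxd1, Mxd3, Mxd4, Mxi1, Mnt and Mlx. These genes were chosen by name, and each matched 1 of the 35275 gene IDs in the read count table. The counts come from RNA-seq of Melb-a, a mouse melanoblast line that grows without limit and is labelled as skin of C57BL/6J genotype. The line carries no engineered allele that the labels name. Cells of every group were held for 48 h in DMEM with 10% serum, 2 nM of the melanocortin analog NDP-alpha MSH and 200 nM phorbol-myristate-acetate, an activator of protein kinase C. With this medium 3 samples received 10 µM iBRD9, which binds the bromodomain of the SWI/SNF subunit BRD9, and 3 samples received its vehicle DMSO. Both groups are labelled as differentiation. The series' design text calls the samples independent without saying what separates them, so p-values measure the spread between these samples of 1 cell line, which may be technical. The comparison asks which network transcripts differ between iBRD9 and DMSO.

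MYC, and its relatives MYCN and MYCL, must pair with MAX to bind the E-box, and the MYC and MAX pair recruits coactivators that raise transcription of growth genes. The MXD proteins (MXD1, MXI1, MXD3 and MXD4) and MNT compete with MYC for MAX, bind the same E-box and bring SIN3 and HDAC corepressors instead. MLX is a second hub: it pairs with the glucose-sensing factors MLXIP and MLXIPL and also with MXD1, MXD4 and MNT. In many mouse tissues Mxd1 and Mxi1 rise as cells stop dividing and differentiate, while Mxd3 is found in dividing cells. MYC is known as a driver of growth in melanoma, the tumour of this lineage.

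The E-box letters searched for were CACGTG, which read the same on both strands. RefSeq promoter windows of build GRCm38.p6, each 300 bases long with 250 before the gene's start, were matched by symbol for 9 of the 10 members, all but Myc. At least 1 match was found in 4 of those 9, namely Max, Mnt, Mxd4 and Mlx. These counts are of genes, and the 9 members have 11 windows. Over all genes the share is of windows, with 7.15% of 32851 holding a match. No window of Mycn, Mycl, Mxd1, Mxd3 or Mxi1 held these letters, the 3 windows of Mxi1 included. The sequences below show where the letters lie, with the E-box in capitals. Max and Mxd3 are given at length because Max, the shared partner, had the match closest to its start and a lower level with iBRD9, and Mxd3 was the member with the large rise. For the other 3 matches 60 bases around the E-box are given.
Max, chr12:76962239-76962498, minus strand: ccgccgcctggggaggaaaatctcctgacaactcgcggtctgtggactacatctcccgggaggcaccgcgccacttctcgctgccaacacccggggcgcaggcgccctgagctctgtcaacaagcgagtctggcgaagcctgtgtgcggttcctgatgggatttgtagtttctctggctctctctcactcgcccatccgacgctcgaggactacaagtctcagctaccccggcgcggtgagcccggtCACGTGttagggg
Mxd3, chr13:55329732-55329981, minus strand: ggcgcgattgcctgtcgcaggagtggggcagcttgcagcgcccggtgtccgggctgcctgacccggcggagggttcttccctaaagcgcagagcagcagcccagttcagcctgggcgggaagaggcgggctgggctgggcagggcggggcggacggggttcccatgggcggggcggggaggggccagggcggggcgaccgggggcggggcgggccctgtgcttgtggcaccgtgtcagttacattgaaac
Mnt, chr11:74830774-74830833, plus strand: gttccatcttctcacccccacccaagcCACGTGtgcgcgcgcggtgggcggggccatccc
Mxd4, chr5:34187897-34187956, minus strand: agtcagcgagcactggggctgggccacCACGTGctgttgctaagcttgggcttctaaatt
Mlx, chr11:101087223-101087282, plus strand: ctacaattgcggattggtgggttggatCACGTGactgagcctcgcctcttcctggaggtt
The first base of the E-box lies 3 bases before the start in Max, 40 in Mlx, 123 in Mnt and 219 in Mxd4. A match is a string of letters and not a measured binding site.

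The libraries held between 22846391 and 29680952 counts. Mitochondrial transcripts took 2.77% ± 0.329 of counts with iBRD9 and 3.53% ± 0.159 with DMSO, and 19074 ± 279 and 18260 ± 30.4 genes had a count (SD, n = 3 each; two-sided exact permutation p = 0.1 for both, the smallest that 3 against 3 allow). Of the DMSO libraries, replicate 1 was far from its fellows, with a chi-square per degree of freedom of 29.2 and 37.5 against them, where they gave 3.06 against each other. Members, and list genes or counts that it moves most, are also given without it. The iBRD9 pairs gave 1.93 to 6.33. All 10 melanocyte markers had counts in every library. Of 6 keratinocyte markers Krt1, Krt5, Krt15 and Ivl were at 0 in every library, and of 5 immune cell markers Ptprc and Cd3e were. In both lists only 1 marker had a count in every library. The summed level of 5 Schwann cell markers was 55.6 to 59.0 CPM (counts per 1000000 counts, scaled by the TMM method) with iBRD9 and 239 to 329 CPM with DMSO. The melanocyte sum was 15790 to 17400 CPM with iBRD9 and 17300 to 19750 CPM with DMSO, with overlap. Summed levels of 6 fibroblast markers were 131 to 145 CPM with iBRD9 and 75.3 to 99.7 CPM with DMSO. Those of 4 endothelial markers were 4.42 to 6.16 and 1.46 to 1.602 CPM. The keratinocyte sum was 3.56 to 4.32 CPM with iBRD9 and 3.50 to 4.12 CPM with DMSO, and the immune sum 3.88 to 4.64 and 5.69 to 7.53 CPM, without overlap. The part of these differences in the results on the network was not tested. In such bulk RNA fewer cells of a type and less RNA per cell cannot be told apart.

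The network moved in both directions. With iBRD9 the transcripts of Myc, Max, Mxd1 and Mxi1 were lower, and that of Mxd3 was higher. Mycn, Mycl, Mxd4, Mnt and Mlx did not pass the test. All 10 members passed the filter on low counts, and 5 of them were called by edgeR's quasi-likelihood test at a Benjamini-Hochberg adjusted p under 0.05 over 13602 tested genes. In the same comparison 60.7% of all tested genes were called, 29.8% higher and 30.9% lower, so being called does not set the members apart. Scaled by library size alone, 4999 genes were higher and 3385 lower, against 4057 and 4205 with TMM. The libraries of the groups did not overlap for the same 5 members, against 68.0% of all tested genes. The median log2 fold change of the members was -0.05 and that of all tested genes 0.01.

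**Figure D1:**
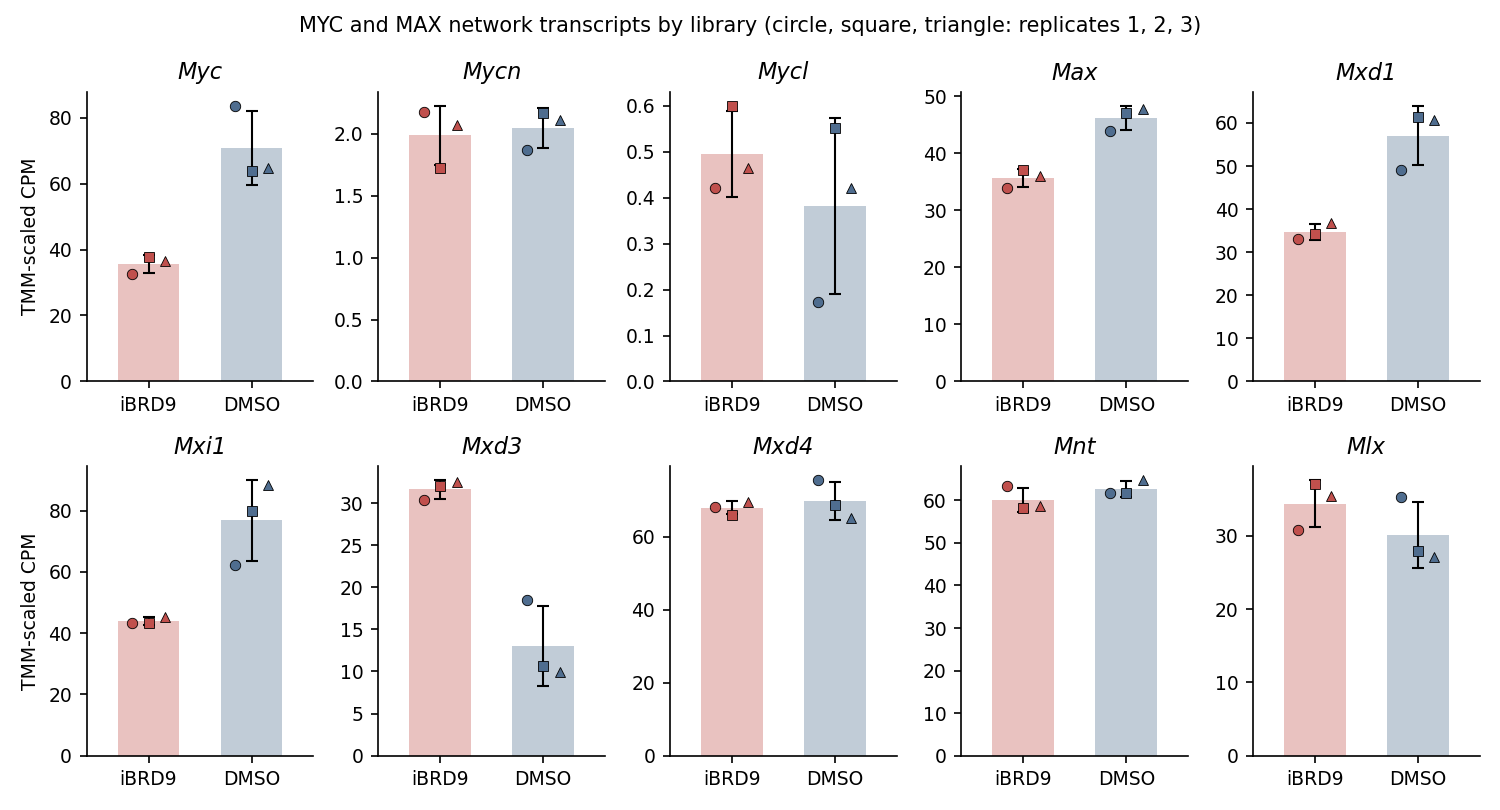
Level of each network member, in TMM-scaled counts per 1000000 counts (CPM, y axis), with iBRD9 on the left and DMSO on the right of each panel. Bars are means, error bars SD over 3 libraries, and points single libraries; Myc stands at 32.6 to 37.7 CPM with iBRD9 against 64.0 to 83.6 CPM with DMSO, while Mxd3 stands at 30.4 to 32.5 against 9.99 to 18.4 CPM.

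Myc (ENSMUSG00000022346, chromosome 15), the activator of the network, had 32.6, 37.7 and 36.4 CPM in the iBRD9 libraries and 83.6, 64.0 and 64.7 CPM in the DMSO libraries. The groups did not overlap, and DMSO replicate 1 was the highest library. The log2 fold change was -0.99 (SE 0.114, adjusted p = 0.000172), so that the level fell by 49.7%. Without DMSO replicate 1 it was -0.87 (SE 0.059, adjusted p = 4.06e-12).

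The relatives of Myc were scarce. Mycn (ENSMUSG00000037169), best known from neural tissue and neuroblastoma, had 2.18, 1.72 and 2.07 CPM with iBRD9 and 1.87, 2.17 and 2.11 CPM with DMSO. Its groups overlapped and it was not called (log2 fold change -0.04, SE 0.183, adjusted p = 0.860). Mycl (ENSMUSG00000028654), the third paralog, was read 13, 15 and 11 times with iBRD9 and 4, 14 and 10 times with DMSO, which is at most 0.6003 CPM. At this depth the SE, 0.421, was larger than the log2 fold change of 0.34 (adjusted p = 0.499), and no difference was detectable. Without DMSO replicate 1 the log2 fold change was 0.0005. Per kb of exon, the summed exon length of each gene in GENCODE M21, Myc stood at 13.1 ± 0.977 CPM with iBRD9 and 26.0 ± 4.10 CPM with DMSO. On the same scale Mycn stood at 0.604 ± 0.072 and 0.622 ± 0.049 CPM and Mycl at 0.123 ± 0.023 and 0.095 ± 0.048 CPM (SD, n = 3 each).

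Max (ENSMUSG00000059436, chromosome 12), the partner that MYC, MXD and MNT proteins all need, had 33.9, 37.1 and 36.1 CPM with iBRD9 and 43.9, 47.0 and 47.8 CPM with DMSO. Every iBRD9 library was below every DMSO library. The log2 fold change was -0.37 (SE 0.068, adjusted p = 0.00171), a smaller difference than that of Myc. It ran from -0.42 without DMSO replicate 1 to -0.34 without iBRD9 replicate 1 and was -0.27 when libraries were scaled by their size alone.

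The MXD antagonists split. Mxd1 (ENSMUSG00000001156), which opposes MYC in differentiating cells, had 32.96, 34.2 and 36.7 CPM with iBRD9 and 49.1, 61.3 and 60.8 CPM with DMSO. All iBRD9 libraries were lower, and DMSO replicate 1 was the DMSO library closest to them. Its log2 fold change was -0.72 (SE 0.097, adjusted p = 0.000371), and -0.83 without that library. Mxi1 (ENSMUSG00000025025), another antagonist of MYC, had 43.4, 43.3 and 45.3 CPM with iBRD9 and 62.4, 79.8 and 88.2 CPM with DMSO. The groups did not overlap, and the DMSO libraries were spread far more widely than the iBRD9 libraries. Its log2 fold change was -0.80 (SE 0.117, adjusted p = 0.000558), and -0.94 without DMSO replicate 1.

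Mxd3 (ENSMUSG00000021485, chromosome 13) went the other way from Mxd1 and Mxi1. It had 30.4, 32.0 and 32.5 CPM with iBRD9 and 18.4, 10.6 and 9.99 CPM with DMSO. Every iBRD9 library was above every DMSO library, and DMSO replicate 1 was the highest of its group. The log2 fold change was 1.28 (SE 0.205, adjusted p = 0.000904), a 2.43-fold higher level, and 1.61 (SE 0.081) without DMSO replicate 1. Exons of Mxd3 and of Prelid1 on the opposite strand share 105 of the 2369 exon bases of Mxd3 in GENCODE M21, and the kit is not described as marking strand. Prelid1 was lower with iBRD9, at 158 ± 8.52 CPM against 226 ± 15.1 CPM with DMSO (log2 fold change -0.52, adjusted p = 0.000359).

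Mxd4 (ENSMUSG00000037235), the remaining MXD factor, had 68.1, 66.0 and 69.6 CPM with iBRD9 and 75.5, 68.8 and 65.0 CPM with DMSO. Its groups overlapped, and the log2 fold change was -0.04 (SE 0.070, adjusted p = 0.654). It shares 514 of its 8483 exon bases with an antisense gene that has no ID in the read count table. Mnt (ENSMUSG00000000282), an antagonist present in most cell types, had 63.3, 58.2 and 58.6 CPM with iBRD9 and 61.6, 61.6 and 64.8 CPM with DMSO. The groups overlapped here too (log2 fold change -0.06, SE 0.062, adjusted p = 0.409). For both genes the sign depended on the scaling, with 0.07 and 0.04 for library size alone, a setting that moved the median of all tested genes by 0.11.

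Mlx (ENSMUSG00000017801), the second hub, had 30.8, 37.0 and 35.4 CPM with iBRD9 and 35.3, 28.0 and 27.1 CPM with DMSO. DMSO replicate 1 lay within the iBRD9 range while the other DMSO libraries lay below it. With all libraries the log2 fold change was 0.19 (SE 0.116, adjusted p = 0.182). Without DMSO replicate 1 it was 0.31 (SE 0.073, adjusted p = 0.000652), which made Mlx the sixth called member, in a fit that called 74.0% of all tested genes. Over the alternatives its adjusted p ran from 0.000652 to 0.454. Mlx shares 385 of its 1999 exon bases with Psmc3ip on the opposite strand, which was higher with iBRD9, at 7.69 ± 0.315 CPM against 5.62 ± 0.727 CPM with DMSO (log2 fold change 0.45, adjusted p = 0.0143). Reads of such overlaps cannot be told apart without strand.

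**Figure D2:**
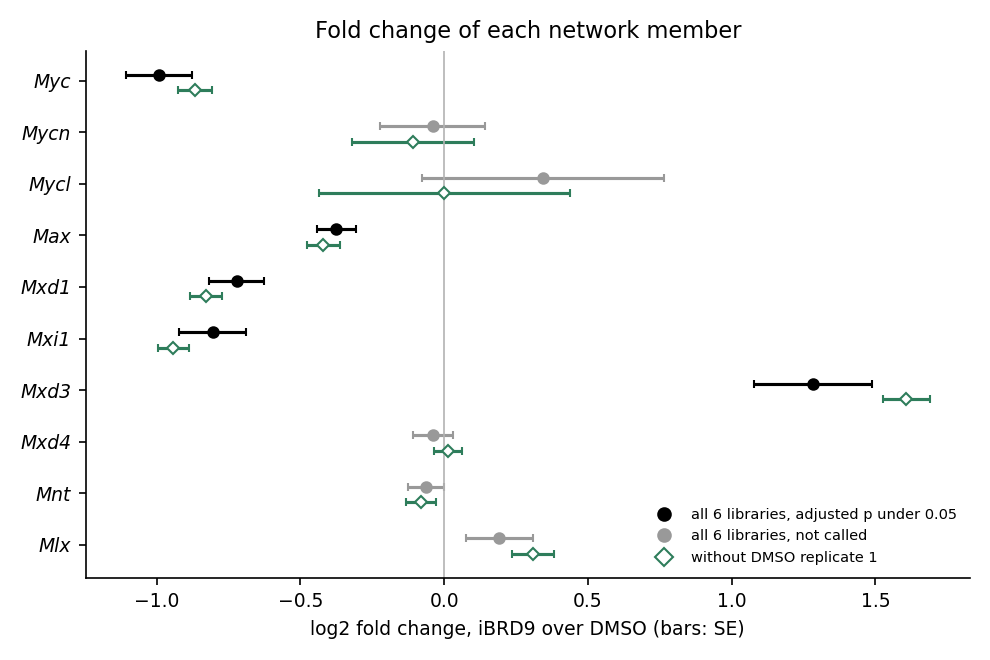
Log2 fold change of iBRD9 over DMSO for each member (x axis), with bars for the SE. Circles use all 6 libraries, black where the adjusted p was under 0.05; open diamonds leave out DMSO replicate 1, which moves Mxd3 to 1.61 and Myc to -0.87.

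DMSO replicate 1 was not equally close to iBRD9 in all called members. On the log2 scale it lay 52.0% of the way from the other DMSO libraries to the iBRD9 mean for Mxd3, 45.9% for Mxi1, 38.4% for Mxd1 and 27.2% for Max. For Myc it lay on the far side, at -44.1%. Leaving this library out thus made the differences of Mxd3, Mxi1, Mxd1 and Max larger and that of Myc smaller. All 5 stayed below an adjusted p of 0.05 in each of the alternative settings, with 0.0113 for Max the highest value among them.

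The order of levels per kb of exon differed between the groups. With iBRD9 Mlx stood first at 17.2 ± 1.61 CPM per kb, followed by Mxd3 (13.4 ± 0.464), Myc (13.1 ± 0.977) and Mnt (12.97 ± 0.613), which overlapped each other. With DMSO Myc stood first at 26.0 ± 4.10 CPM per kb, above Mlx (15.1 ± 2.25) and Mnt (13.6 ± 0.393), which overlapped. Max was at 9.92 ± 0.453 with iBRD9 and 12.8 ± 0.580 with DMSO. Mxd4 followed Max with iBRD9 at 8.01 ± 0.210, with Mxi1 (6.45 ± 0.172) and Mxd1 (4.90 ± 0.268) below it. In DMSO the libraries of Max and Mxi1 (11.3 ± 1.93), of Mxd4 (8.22 ± 0.629) and Mxd1 (8.07 ± 0.977), and of Mxd1 and Mxd3 (5.49 ± 1.99) overlapped (SD, n = 3 each). These lengths are those of the older annotation and all exons, so the order holds for that length alone.

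Within the MXD set the make-up differed between the treatments, without overlap of libraries for Mxd3, Mxi1 and Mxd1 and with overlap for Mxd4. Of the counts per kb of the 4 MXD transcripts, Mxd3 held 40.3%, 41.6% and 40.7% in the iBRD9 libraries and 23.8%, 13.6% and 12.6% in the DMSO libraries. Mxi1 held 19.7% ± 0.201 with iBRD9 and 34.0% ± 5.55 with DMSO, and Mxd1 15.0% ± 0.378 and 24.4% ± 2.81 (SD, n = 3 each). The share of Mxd4 was 24.5% ± 0.633 and 24.9% ± 2.13. These shares need no scaling between libraries, and they were computed after the values of the members had been seen.

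The balance of Myc against Max, Mnt, Mxd4 and Mxi1 was read as the log2 ratio of counts within a library. This ratio does not depend on scaling either. Ratios to Mxd1, which fell alongside Myc, and to Mxd3, which rose, were not taken, so not all antagonists are covered. Myc against Mnt was -0.96, -0.62 and -0.69 with iBRD9 and 0.44, 0.05 and -0.002 with DMSO, a difference of -0.92. Against Mxd4 the ratio was -1.06, -0.81 and -0.93 with iBRD9 and 0.15, -0.10 and -0.01 with DMSO, a difference of -0.95. Against Max it was -0.06, 0.02 and 0.02 with iBRD9 and 0.93, 0.44 and 0.44 with DMSO, a difference of -0.61. In these 3 ratios every iBRD9 library lay below every DMSO library. All 3 hold the same Myc counts, and Mnt and Mxd4 were not called (log2 fold change -0.06 and -0.04). They are therefore not separate results beside the lower Myc transcript. The ratio to Mxi1, which fell alongside Myc, overlapped between groups, with -0.41, -0.20 and -0.32 with iBRD9 and 0.42, -0.32 and -0.45 with DMSO. Its difference of -0.19 became 0.07 without DMSO replicate 1. Two-sided exact permutation tests gave p = 0.1 for Mnt, Mxd4 and Max, the smallest that 3 against 3 allow, and p = 0.9 for Mxi1. Adjusted over the 4 ratios these were 0.133 and 0.9, so none can pass 0.05 in this design.

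**Figure D3:**
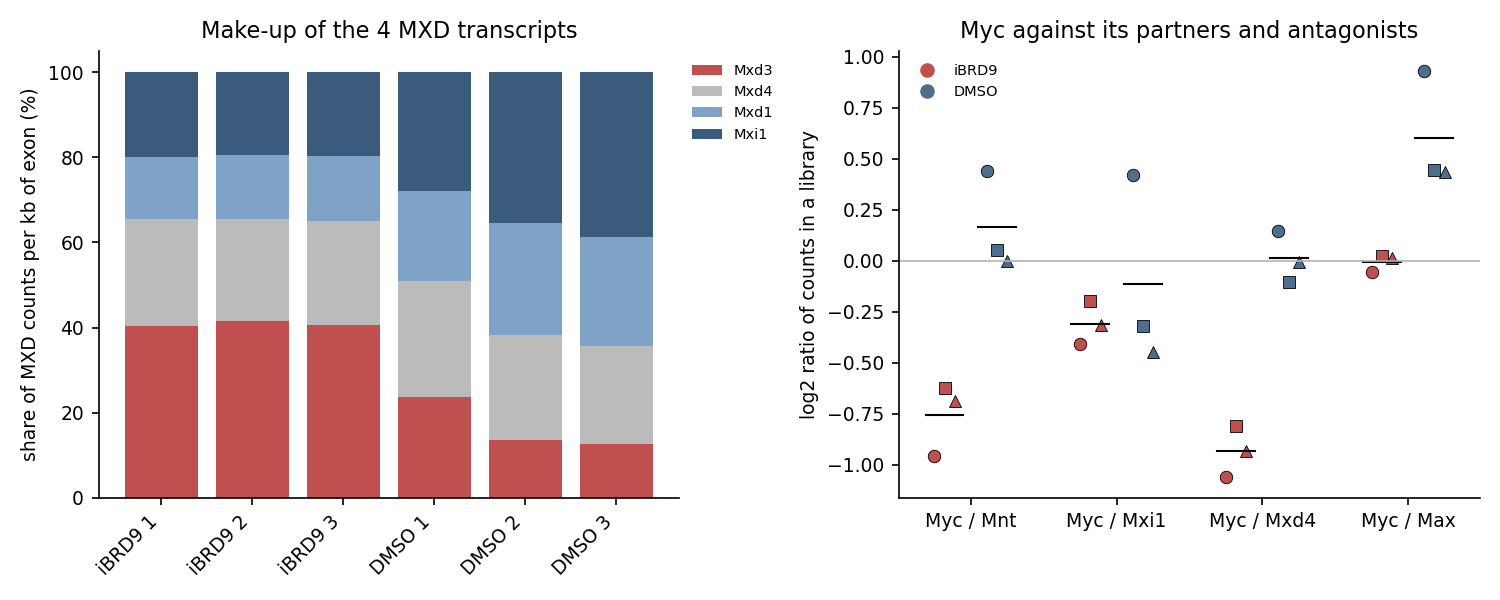
Left, the share of each MXD transcript in the counts per kb of exon of the 4 MXD genes (y axis, %), by library. Right, the log2 ratio of Myc counts to those of Mnt, Mxi1, Mxd4 and Max in each library, with lines at the means. The Mxd3 share is 40.3% to 41.6% with iBRD9 and 12.6% to 23.8% with DMSO. Of the 4 ratios shown, the one to Mxi1 overlaps between groups. Ratios to Mxd1 and Mxd3 were not taken.

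Genes whose pattern over the 6 libraries was closest to that of Myc were taken by the root mean square difference of centred log2 CPM among 9942 genes. They were Tm4sf1, a tetraspanin-like membrane protein gene (difference 0.064), the collagen gene Col15a1 (0.073), Fam198b (0.079), the natriuretic peptide clearance receptor gene Npr3 (0.083) and the survival gene Bcl2l1 (0.087). Tm4sf1 stood at 83.4 ± 3.52 CPM with iBRD9 and 175 ± 20.8 CPM with DMSO, and Bcl2l1 at 18.4 ± 1.32 and 36.8 ± 2.32 CPM (SD, n = 3 each). The choice by likeness to Myc fixes their direction.

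Among the partners that join the network through MAX or MLX, Mga, which pairs with MAX, rose. It stood at 170 ± 6.89 CPM with iBRD9 and 137 ± 6.11 CPM with DMSO (SD, n = 3 each; log2 fold change 0.31, SE 0.059, adjusted p = 0.00231). Mlxip, the partner of MLX also called MondoA, stood at 114 ± 5.24 and 124 ± 3.22 CPM (-0.12, adjusted p = 0.105) and was called without DMSO replicate 1 (-0.15, adjusted p = 0.00684). Mlxipl, also called ChREBP, stayed under the filter with 10, 9 and 11 counts with iBRD9 and 6 counts in each DMSO library.

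Of 13 tested MYC coactivator genes, 3 rose and 1 fell. The median log2 fold change was 0.00, and 30.8% were called, against 60.7% of all genes. Trrap, the scaffold that MYC uses to bring in histone acetyltransferases, rose to 458 ± 9.05 CPM with iBRD9, against 255 ± 17.4 CPM with DMSO (0.84, SE 0.064, adjusted p = 2.30e-05). Ep400, the ATPase of a complex that holds TRRAP, rose by a like amount (0.78). Ruvbl1, an ATPase of the same complex, fell (-0.39). With library size alone 6 coactivators rose, and without DMSO replicate 1 or without DMSO replicate 3 the count that fell was 3 or 2.

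The corepressors that the MXD proteins and MNT recruit went both ways: of 12 tested, 5 rose and 4 fell (median -0.002; 75.0% called, against 60.7% of all tested genes). Sin3a, the scaffold of the complex, stood at 98.4 ± 3.63 CPM with iBRD9 and 65.5 ± 6.96 CPM with DMSO (0.59), and the subunit gene Arid4b rose by 0.47 on the log2 scale. The subunit genes Sap30 (-0.47) and Suds3 (-0.28) fell. The count of falls was 2 with library size alone and also when any library other than DMSO replicate 1 was left out.

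Of 14 tested genes of MYC protein turnover, 6 rose and 4 fell (median 0.10; 71.4% called, against 60.7% of all tested genes). The rises were 7 without DMSO replicate 1 and 8 with library size alone, but 4 with no filter, with the replicate block, and when any of the other 5 libraries was left out. Skp2, an F-box protein that ubiquitylates MYC, stood at 41.4 ± 1.10 CPM with iBRD9 and 22.9 ± 7.80 CPM with DMSO (0.85, adjusted p = 0.00522; 1.16 without DMSO replicate 1). Cip2a, which protects MYC from the phosphatase PP2A, rose as well (0.74, and 0.91 without that library). Usp36, a nucleolar enzyme that removes ubiquitin from MYC, and Set, an inhibitor of PP2A, were lower (-0.50 and -0.49). The named genes whose products stabilize MYC were thus on both sides, Cip2a higher and Usp36 and Set lower.

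Of 28 tested genes of ribosome biogenesis that MYC is known to activate, 6 rose and 11 fell. Their median was -0.15, the range -0.70 to 3.20, and 60.7% were called, the same share as among all tested genes. The calls over all tested genes were split more evenly, with 29.8% higher and 30.9% lower. Nop16, a nucleolar protein gene, stood at 21.8 ± 2.20 CPM with iBRD9 and 35.3 ± 3.13 CPM with DMSO (-0.70), and Wdr43, of the small subunit processome, fell by 0.62 on the log2 scale. Rrp12 and Rrp9, also ribosomal RNA processing genes, had the largest rises, Rrp12 with 45.4 ± 2.52 CPM against 4.91 ± 1.12 CPM (3.20) and Rrp9 with 27.3 ± 2.81 against 4.84 ± 0.455 CPM (2.49; SD, n = 3 each). Library size alone gave 11 rises. In the fit without DMSO replicate 1, which called 74.0% of all tested genes, there were 8 rises and 14 falls.

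The list of MYC activated genes in metabolism, translation and the cell cycle had the same counts, 6 higher and 11 lower of 28 tested, with a median of -0.11. Of those tested 60.7% were called, the same share as among all tested genes, where the split was more even (29.8% higher and 30.9% lower). Without DMSO replicate 1 there were 6 rises and 14 falls, in a fit that called 74.0% of all tested genes. Shmt2, a mitochondrial enzyme of one-carbon metabolism, fell the most, to 120 ± 9.72 CPM with iBRD9 against 514 ± 121 CPM with DMSO (-2.10, SE 0.164, adjusted p = 2.69e-05). Prdx3, a mitochondrial peroxidase gene, fell by 0.97 on the log2 scale. Ptma, the prothymosin gene, rose to 1259 ± 97.8 CPM against 780 ± 145 CPM (0.69, and 0.84 without DMSO replicate 1), and the purine synthesis gene Gart rose by 0.38.

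Of 10 tested genes that MYC is known to repress, 3 rose and 4 fell (range -1.28 to 2.66; 70.0% called, against 60.7% of all tested genes). Their median was -0.17, and -0.10 without DMSO replicate 1 and -0.06 with library size alone. With no filter, which added Cebpa at no more than 4 counts in a library, it was -0.09. Cdkn1a, the p21 inhibitor of cyclin-dependent kinases, stood at 15.7 ± 0.727 CPM with iBRD9 and 38.2 ± 9.64 CPM with DMSO (-1.28, and -1.48 without DMSO replicate 1). Ndrg2 fell too (-1.03). Cdkn2b, the p15 inhibitor, rose to 4.19 ± 0.112 CPM against 2.49 ± 0.179 CPM (0.75), and the growth arrest gene Gas1 rose by 0.39. Each list of known MYC targets, activated or repressed, thus held genes called higher and genes called lower. A link to the lower Myc transcript was not tested.

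Of 5 tested targets of the Mondo and MLX pairs, 2 were higher and 3 lower, where 60.7% of all tested genes were called. Their median was -0.46. With no filter it was 0.34, but that setting added Pklr and G6pc, which had at most 4 counts and 1 count in any library. Arrdc4, a sugar-induced arrestin family gene, stood at 32.5 ± 1.89 CPM with iBRD9 and 82.3 ± 26.1 CPM with DMSO (-1.34), and Klf10 fell (-0.87). Without DMSO replicate 1 these were -1.59 and -1.07. The lipid synthesis genes Fasn (1700 ± 54.5 CPM with iBRD9 against 799 ± 239 CPM with DMSO, 1.09, and 1.35 without DMSO replicate 1) and Acaca (0.34) rose. The third lower gene, Txnip, which curbs glucose uptake, stood at 231 ± 11.9 CPM with iBRD9 and 317 ± 81.0 CPM with DMSO (-0.46, adjusted p = 0.0404, and 4.52e-12 to 0.194 over the alternatives), and its groups overlapped. The count of falls was 2 with library size alone, limma-voom, no filter or the replicate block, and when any library other than DMSO replicate 1 was left out.

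**Figure D4:**
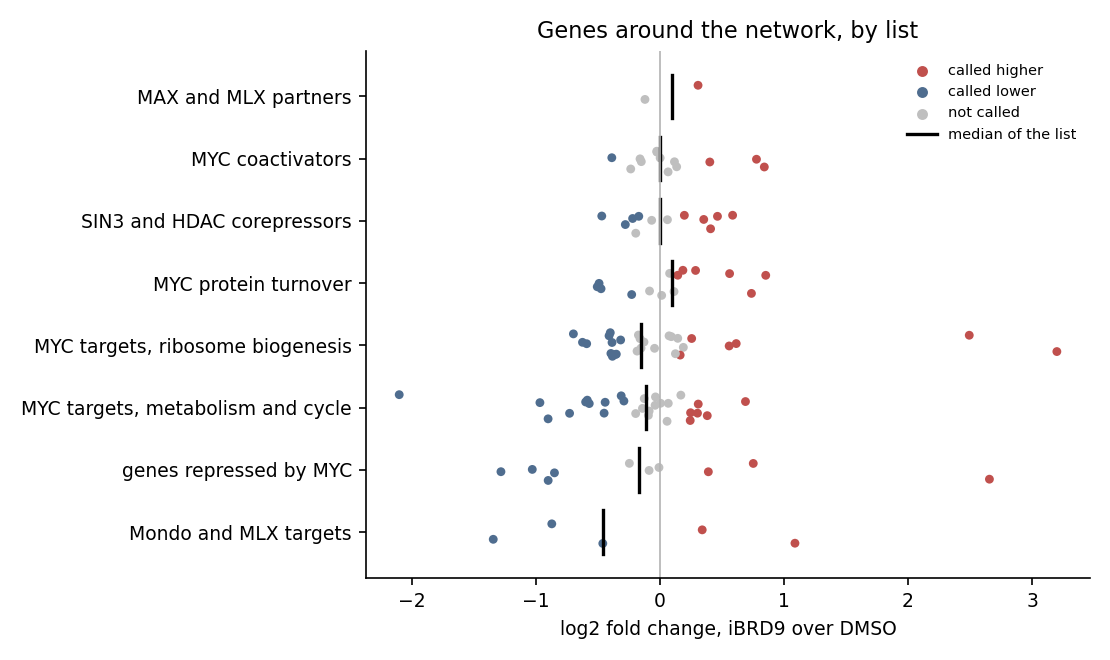
Log2 fold change of iBRD9 over DMSO (x axis) for every tested gene of the 8 lists around the network. Red points were called higher, blue points called lower and grey points not called, and black bars are list medians, which run from -0.46 for the Mondo and MLX targets to 0.10 for MYC protein turnover.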

How the data were processed

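The authors deposited raw read counts per Ensembl gene ID for all 6 libraries. Per the submitters' processing notes, CASAVA 1.8.2 and Bowtie2 2.4.5 were used with build GRCm39. How reads were assigned to genes, including annotation and strand, is not given in the sources used here. IDs were matched to symbols for 34490 of 35275. From these counts, genes were kept by filterByExpr (minimum count 10), scaled by TMM and compared with edgeR 4.0.16 (quasi-likelihood F-test, robust, R 4.3.3), with treatment as the only term, p-values adjusted by Benjamini-Hochberg over all 13602 tested genes and a gene called under 0.05. CPM are TMM-scaled. An SE is the log2 fold change divided by the root of the F statistic. Ratios used a pseudocount of 0.5. In simulated data with 100 genes changed 2-fold and 100 changed 1.5-fold, of 13407 tested, the fit recovered 100 and 80. Of its calls 3.74% were unchanged genes. With so few changed genes, the simulation does not test the scaling of data where 60.7% of genes were called. Exon lengths and overlaps came from GENCODE M21 (GRCm38), an older build. Alternatives were DESeq2 size factors, library size alone, DESeq2 1.42.0, limma-voom (limma 3.58.1), other filters, a replicate block and leaving out each library. The members and lists were chosen with earlier results of these data known. Txnip, Prelid1 and Psmc3ip were named outside the rule, after their values were seen. Named are all members, all MAX and MLX partners, up to 2 called genes per direction from each other list whose mean log2 CPM reached 1, and the 5 genes most like Myc. Figures used matplotlib 3.10.9.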

Additional observations from a re-analysis of the deposited data

How the results depend on the processing

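With library size alone, the calls higher were 6 for MYC coactivators and 11 for ribosome biogenesis, and corepressors called lower were 2; Mycn was 0.0667, Mxd4 0.0659, Mnt 0.0439 and Pvt1 0.0026, each of the opposite sign to the value reported and none called. Leaving out single libraries, Mycn ran from -0.1164 to 0.0501 (without iBRD9 replicate 2) and Mxd4 from -0.0936 to 0.0134 (without DMSO replicate 1). Leaving out each library in turn gave 1 to 2 members called higher and 4 in every case called lower. It gave 0 to 1 of the MAX and MLX partners, 1 to 3 coactivators and 2 to 5 corepressors called lower, and -0.3598 to 0.0747 (without DMSO replicate 1) for the log2 ratio of Myc to Mxi1. Of 558 values of single genes under the alternatives, 535 kept their direction and side of the threshold. Same-numbered libraries deviated together only weakly (correlations 0.118, 0.060 and 0.025), and not every library matched its own number best, so the numbers were not taken as pairs; the fit with the replicate block called 3920 genes higher and 4017 lower, against 4057 and 4205 without it, and the same number of members, 1 higher and 4 lower. It called 4 turnover genes higher, against 6 without it, and 2 Mondo and MLX targets lower, against 3. The low counts of Mycl and Mlxipl limit what can be seen of them, and the filter at 1 CPM removed Mycl.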

Other observations

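A few further genes tied to the network were looked up after the values of the members had been seen. Pvt1, the noncoding RNA gene next to Myc, had 4.90, 4.28 and 4.86 CPM with iBRD9 and 5.08, 5.17 and 4.85 CPM with DMSO. Its groups overlapped (log2 fold change -0.10, SE 0.123, adjusted p = 0.488 by edgeR, and 0.442 to 0.988 over the alternatives), while Myc itself was lower. Usf1 and Usf2, which bind the same E-box letters outside the network, were lower with iBRD9, Usf1 at 52.7 ± 0.947 CPM against 62.2 ± 4.33 CPM with DMSO (-0.24, adjusted p = 0.0155) and Usf2 at 64.1 ± 2.32 against 77.6 ± 10.3 CPM (-0.27, adjusted p = 0.0323). Zbtb17, whose protein MIZ1 takes part in repression by MYC, stood at 23.5 ± 0.967 CPM with iBRD9 and 31.1 ± 5.63 CPM with DMSO (-0.41, adjusted p = 0.0223; SD, n = 3 each). These 3 calls were lost in some alternatives, with adjusted p up to 0.0905, 0.126 and 0.0766, library size alone among them for each. In the same comparison 60.7% of all tested genes were called, 30.9% lower.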
